A study of Arabidopsis thaliana with 4 samples.

Results

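The subject is a set of 27 genes of the plant Arabidopsis thaliana that were expressed in cmt3 seedlings and nearly lost in seedlings labelled tcx5/6;cmt3, a triple mutant by its label. They were chosen from a table of 32548 genes by their values in all 4 libraries. A gene had to reach 30 or more in both cmt3 libraries and stay under 30 in both tcx5/6;cmt3 libraries, and its lower cmt3 value had to be at least 4 times its higher tcx5/6;cmt3 value. Of the 40 genes that met these values, 13 were left out by locus number: 12 carry locus numbers of ranges around the centromeres and 1, AT5G39110, belongs to a germin-like gene cluster. The difference between the genotypes is therefore what chose these genes, and their values below describe them without a test.

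The libraries came from whole 2-week-old seedlings grown on MS plates at 22 °C with 16 h of light and 8 h of dark, with 1 g of tissue per extraction. Each of the 2 genotypes has 2 libraries. The first, labelled tcx5/6;cmt3, carries homozygous tcx5, tcx6 and cmt3 mutations, and the second carries the homozygous cmt3 mutation alone, so the cmt3 mutation is shared by all 4 libraries. The labels do not say which alleles were used or whether replicates were grown apart. A p-value sets the difference between genotypes against the spread of these libraries within genotypes, and that spread may be technical.

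TCX5 and TCX6 are DNA-binding proteins with cysteine-rich CXC domains, and they work in the DREAM complex, a repressor of cell-cycle genes that binds DNA through such proteins. In Arabidopsis this complex also holds down genes that maintain DNA methylation. CMT3 is the chromomethylase that keeps methylation at CHG sites, where H is any base but G. The genes described here were lower in the libraries of the labelled triple mutant. Whether the DREAM complex acts on any of them, directly or through other genes, was not tested.

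Values of the mutated genes neither bear out nor contradict the labels, since a mutated gene can still be transcribed. TCX5 had 251 and 249 normalized units in the tcx5/6;cmt3 libraries, against 730 and 676 in the cmt3 libraries. TCX6 had 919 and 1034 in the libraries labelled tcx5/6;cmt3, against 198 and 180 in cmt3, so its RNA was higher where it is labelled as mutated. CMT3, labelled as mutated in both genotypes, had 1289 and 1343 in tcx5/6;cmt3, against 822 and 662 in cmt3, and was called higher (limma adjusted p = 0.00985). Gene-level values cannot show whether a transcript is disrupted, so every direction below rests on the label. Normalized values summed to 39000000 and 39160800 in the tcx5/6;cmt3 libraries and to 41106100 and 38264500 in the cmt3 libraries, and the number of reads behind them is unknown. No leaf marker (6 of 6 tested) and no root marker (8 of 8 tested) was called, and photosynthesis genes such as RBCS1A were abundant in every library. Of 5 tested flower markers 1 was higher, SEP3 with 960 and 668 in tcx5/6;cmt3 seedlings against 283 and 259 in cmt3 seedlings. The summed flower markers were 728 to 1041 in tcx5/6;cmt3 and 307 to 326 in cmt3, and SEP3 made up most of each sum. AP1, AP3, PI and AG were at 40.5 or less in every library and were not called, and LFY was not tested. The pollen genes VGD1 and DUO1 were at 0 in every library. MGH3 was at 1.37 and 0 in tcx5/6;cmt3 and at 0 and 0 in cmt3. HAP2, another pollen gene, had 16.3 and 21.5 in tcx5/6;cmt3 against 8.73 and 4.92 in cmt3 and was not called. The part of these in the results was not tested, and in whole seedlings fewer cells of a type and less RNA per cell cannot be told apart.

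All 27 genes sat below a value of 30 in both tcx5/6;cmt3 libraries by construction, but most were well under it. Their median was 2.53 in tcx5/6;cmt3 replicate 1 and 3.25 in replicate 2, against 109 in cmt3 replicate 1 and 107 in replicate 2. Of the 27, 19 stayed under 10 in both tcx5/6;cmt3 libraries and 13 exceeded 100 in both cmt3 libraries. The median log2 difference, on the log2(value + 1) scale, was -4.67 (tcx5/6;cmt3 minus cmt3) with a range of -7.98 to -2.17, against a median of -0.02 over the 23666 genes tested. Limma, fitted over those genes with a Benjamini-Hochberg adjusted p under 0.05, called 26 of the 27 lower, where it called 2.32% of all tested genes lower and 6.15% higher. Because the same contrast chose the genes, nothing is read from that count. The 1 gene not called was AT4G13577.

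**Figure D1:**
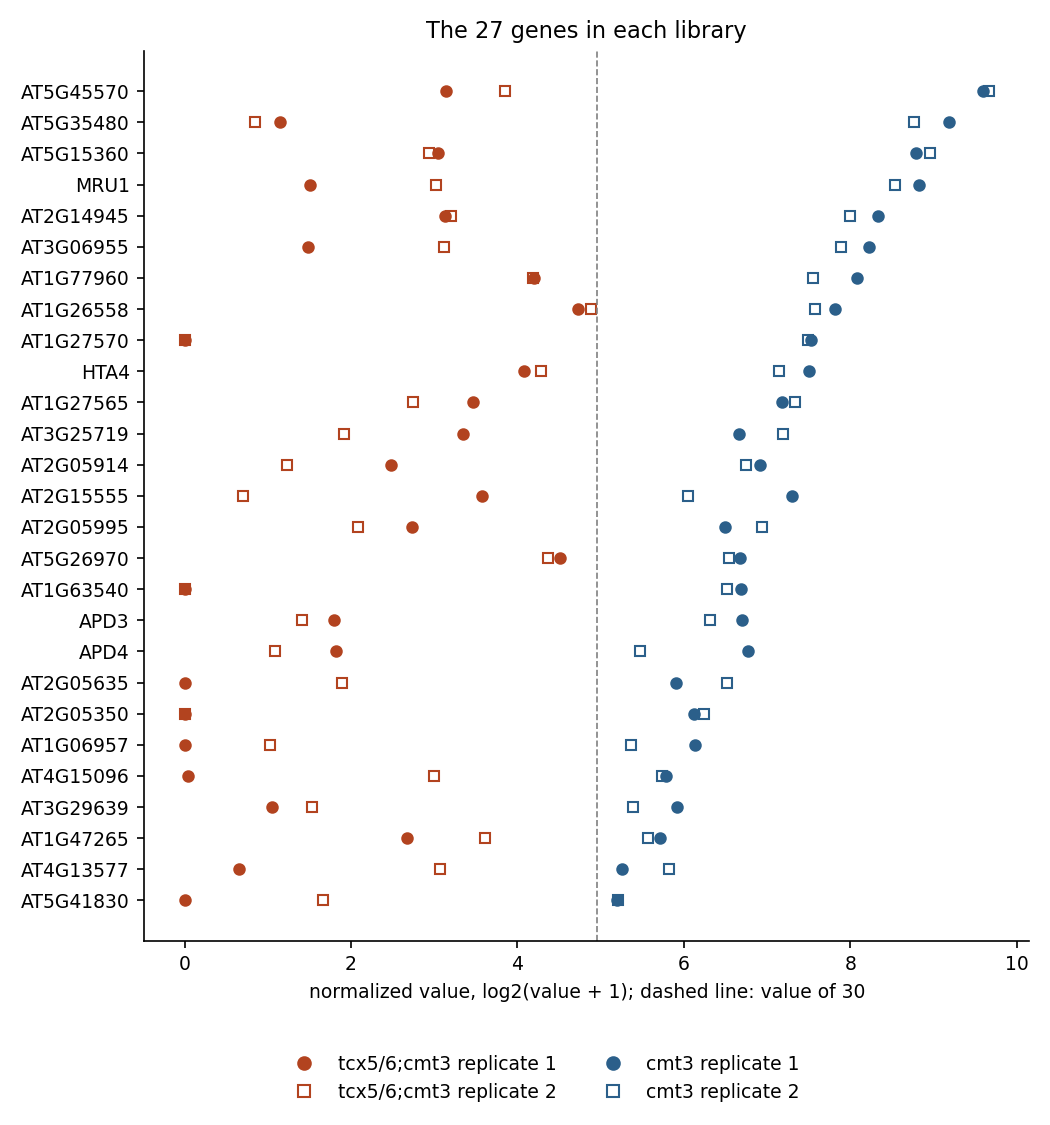
Normalized values of the 27 genes, as log2(value + 1), in the tcx5/6;cmt3 libraries (orange-red) and the cmt3 libraries (blue), with replicate 1 filled and replicate 2 open. Genes run from the highest cmt3 mean at the top to the lowest. No tcx5/6;cmt3 point passes the dashed line at 30, and AT1G27570, AT1G63540 and AT2G05350 lie at 0 in both of those libraries.

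The highest expressed gene of the set in cmt3 seedlings by value was AT5G45570 (chromosome 5, 18471498 to 18475574, plus strand, TAIR10.1 coordinates here and below). It is annotated in the Ulp1 protease family, named for a yeast enzyme that cuts the small modifier SUMO from proteins. AT5G45570 had 7.80 and 13.5 in tcx5/6;cmt3 libraries, against 770 and 812 in cmt3 libraries. Its log2 difference was -6.13 ± 0.32 (SE). Of the 7 genes annotated with this family in the table, 3 were tested and 3 others were at 0 in all 4 libraries. The tested AT5G28810, 1 of the 13 genes left out by locus number, was at 0 and 0 in tcx5/6;cmt3 against 35.1 and 89.4 in cmt3. The tested AT5G28235 was at 0 and 0 against 4.16 and 12.8 and was not called (limma adjusted p = 0.0919).

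The 250 bases before the annotated start of AT5G45570 (chr5:18471248-18471497, plus strand) are shown because they differ in base composition from those of the genes described next, with 58.4% G and C, against 29.5% between AT5G35480 and MRU1 and 29.2% before AT5G15360. The capitals mark AACGG, the core of the MSA element known from plant mitotic genes.
AT5G45570 upstream: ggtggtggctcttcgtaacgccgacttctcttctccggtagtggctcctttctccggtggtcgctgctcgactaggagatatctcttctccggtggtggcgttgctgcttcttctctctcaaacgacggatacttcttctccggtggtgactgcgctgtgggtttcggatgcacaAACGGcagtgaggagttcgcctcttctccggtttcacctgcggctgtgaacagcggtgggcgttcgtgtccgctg

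The other extreme was a divergent gene pair on chromosome 5. AT5G35480, an uncharacterized protein gene (13687847 to 13689596, minus strand), had 1.21 and 0.802 in tcx5/6;cmt3 libraries, against 580 and 435 in cmt3 libraries. Its log2 difference of -7.98 ± 0.40 (SE) was the lowest among all genes tested, and its lower cmt3 value was 360 times its higher tcx5/6;cmt3 value. MRU1 (AT5G35490, 13689817 to 13690548, plus strand) starts on its other side, and was named for its rise in mto1, a mutant that overaccumulates methionine. MRU1 is also annotated as an imprinted gene expressed from the maternal copy. MRU1 had 1.85 and 7.13 in the labelled triple mutant, against 453 and 371 in cmt3 libraries, with a log2 difference of -6.42 ± 0.54 (SE). The gap between genotypes in both genes is what the rule asked for. The only other gene annotated by this response, MRD1, was at 2.53 and 1.12 in tcx5/6;cmt3 and at 0 and 0 in cmt3, and was not called.

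The genes of this pair are separated by 220 bases (chr5:13689597-13689816), which hold the region before both starts. The stretch is printed on the plus strand, so MRU1 begins after its right end and AT5G35480 reads leftward from its left end. Capitals mark the single AACGG.
AT5G35480 to MRU1: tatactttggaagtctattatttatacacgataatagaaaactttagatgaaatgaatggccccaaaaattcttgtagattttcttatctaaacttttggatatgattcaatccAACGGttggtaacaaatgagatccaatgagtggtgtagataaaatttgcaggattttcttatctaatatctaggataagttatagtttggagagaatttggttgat

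AT5G15360, a gene for an uncharacterized protein (chromosome 5, 4987437 to 4989182, minus strand), had the third highest cmt3 mean of the set, above that of MRU1. It had 7.23 and 6.69 in tcx5/6;cmt3 libraries, against 443 and 496 in cmt3 libraries, with a log2 difference of -5.88 ± 0.30 (SE). AT2G14945, also uncharacterized, had 7.72 and 8.19 against 322 and 254. The cmt3 replicates differed 1.12-fold in AT5G15360 and 1.27-fold in AT2G14945. The upstream bases of AT5G15360 (chr5:4989183-4989432, minus strand) hold 2 matches to TTTGAA, shown in capitals, the second of them on the opposite strand as TTCAAA.
AT5G15360 upstream: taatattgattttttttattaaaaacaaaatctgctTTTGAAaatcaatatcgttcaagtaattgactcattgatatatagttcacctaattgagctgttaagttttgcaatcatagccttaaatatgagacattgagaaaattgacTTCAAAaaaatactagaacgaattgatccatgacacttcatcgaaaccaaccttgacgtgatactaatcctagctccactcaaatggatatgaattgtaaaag

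Among genes with a named product, HTA4 (AT4G13570, chromosome 4, 7884516 to 7885982, plus strand) encodes a histone H2A, 1 of the core proteins around which DNA is wound. HTA4 had 15.9 and 18.5 in tcx5/6;cmt3 seedlings, against 180 and 140 in cmt3 seedlings, with a log2 difference of -3.14 ± 0.33 (SE). All 13 H2A genes were tested. HTA4 was the only H2A gene called lower, 4 were called higher and 8 were not called. HTA8, an H2A.Z gene, had 1126 and 1134 in tcx5/6;cmt3 against 358 and 464 in cmt3 (log2 difference 1.47, limma adjusted p = 0.00213). HTA11, also H2A.Z, had 2640 and 2787 against 1283 and 1371 (log2 difference 1.03, adjusted p = 0.00102), and HTA13 and HTA6 were the other called genes. Per kilobase of spliced length, HTA4 averaged 22.7 in tcx5/6;cmt3 and 211 in cmt3, the lowest of the 13 in both genotypes.

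APD3 (AT2G38220) and APD4 (AT2G38195) belong to a small group of RING-finger genes named for aberrant pollen development, of which APD1 and APD2 are known to act in pollen mitosis. APD3 had 2.46 and 1.65 in tcx5/6;cmt3 libraries, against 103 and 78.4 in cmt3 libraries. APD4 had 2.53 and 1.12 in the labelled triple mutant, against 109 and 43.4 in cmt3 libraries, so its cmt3 replicates differed 2.50-fold. The other members of the group were expressed in all libraries. APD1 had 170 and 222 in tcx5/6;cmt3 against 207 and 243 in cmt3, and APD2 had 657 and 733 against 628 and 614. Neither was called (limma adjusted p = 0.671 for APD1 and 0.486 for APD2).

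APD4, at 16002263 to 16006654 on chromosome 2, and APD3, at 16007891 to 16010932, lie 1236 bases apart on the plus strand and are near-copies. APD4 also overlaps APD1 (15999926 to 16003169) on the same strand, so reads from the shared bases could count for either gene. An alignment that covers all of APD3 is 99.0% identical to the APD4 locus. The 100 coding bases in which they differ most (chr2:16005400-16005499 in APD4 and chr2:16009677-16009776 in APD3) are shown with the 3 differing bases in capitals.
APD4: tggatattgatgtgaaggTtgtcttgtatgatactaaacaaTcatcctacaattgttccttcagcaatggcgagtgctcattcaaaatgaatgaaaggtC
APD3: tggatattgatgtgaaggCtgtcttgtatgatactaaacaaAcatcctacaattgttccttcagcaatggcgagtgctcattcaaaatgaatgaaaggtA
A read that covers no differing base cannot be assigned to 1 of them, so their separate values are uncertain.

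The 3 genes at 0 in both tcx5/6;cmt3 libraries were all clearly expressed in cmt3 seedlings. AT1G27570, annotated as a phosphatidylinositol 3- and 4-kinase family protein and so a relative of lipid kinases, had 184 and 179 in cmt3. AT1G63540, annotated as a hydroxyproline-rich glycoprotein, a class found in plant cell walls, had 102 and 90.6 in cmt3. AT2G05350, uncharacterized, had 68.6 and 74.6 in cmt3. In each of the 3 genes the cmt3 replicates lay within 1.12-fold of each other. No fold is given for them, since the table lists 0 and does not give the depth.

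Other annotated products were varied. AT1G77960, described as like the yeast repressor ROX1 of hypoxic genes, had 17.4 and 17.2 in tcx5/6;cmt3 libraries, against 270 and 187 in cmt3 libraries. AT2G05635 is annotated in the RAD3/XPD group of DNA repair helicases and had 0 and 2.72 in tcx5/6;cmt3, against 59.2 and 90.5 in cmt3. The other gene with this annotation, AT1G09995, had 223 and 195 in tcx5/6;cmt3 against 220 and 261 in cmt3 and was not called (limma adjusted p = 0.638). AT5G41830, an RNI-like protein with leucine-rich repeats, had 0 and 2.16 in tcx5/6;cmt3 libraries, against 35.5 and 36.0 in cmt3 libraries, the lowest cmt3 mean of the set.

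Most of the set has little annotation. Of the 27 genes, 11 (40.7%) are protein-coding genes with no known product, against 10.98% of tested genes and 12.5% of the table. Only 4 (14.8%) carry a gene symbol, against 40.7% of tested genes and 33.2% of the table. Of the 11, AT1G27565 had 10.08 and 5.73 in the labelled triple mutant, against 143 and 161 in cmt3 libraries. AT3G25719, with a spliced length of 237 bases, had 9.15 and 2.77 in tcx5/6;cmt3, against 100.03 and 145 in cmt3. AT3G29639 had 1.08 and 1.89 against 59.6 and 40.9. In these genes too, the rule fixed that both tcx5/6;cmt3 libraries lay below both cmt3 libraries.

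Another 6 of the 27 genes are annotated as non-coding: 3 long non-coding RNAs and 3 other non-coding RNAs. Each class is 11.1% of the set. Long non-coding RNAs make up 3.08% of tested genes and 10.7% of the table, and other non-coding RNAs 0.625% and 0.679%. AT3G06955 (chromosome 3, 16498192 to 16498394), a long non-coding RNA, had 1.80 and 7.68 in tcx5/6;cmt3 libraries, against 298 and 236 in cmt3 libraries. AT2G05914 had 4.57 and 1.35 against 120 and 107, and it overlaps the opposite-strand gene AT2G05915, which was at 0 in all 4 libraries. AT1G06957 had 0 and 1.04 against 69.4 and 40.1. That both tcx5/6;cmt3 libraries were lower than both cmt3 libraries in these 3 follows from the rule.

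Of the other non-coding RNAs, AT1G26558 kept the highest values of the set in tcx5/6;cmt3 libraries, with 25.5 and 28.5, against 224 and 190 in cmt3 libraries. AT2G05995 had 5.65 and 3.25 in tcx5/6;cmt3, against 89.5 and 121 in cmt3. AT2G15555 had 10.9 and 0.629 in tcx5/6;cmt3 libraries, against 157 and 65.1 in cmt3 libraries. It and APD4 were the 2 genes of the set whose cmt3 replicates differed 2-fold or more, which is 7.41% of the 27 against 6.37% of the 9648 tested genes with cmt3 means in the same range.

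Per kilobase of spliced length, cmt3 means ran from 21.0 units for AT5G41830 to 1315 for AT3G06955, a transcript of only 203 bases. After AT3G06955 came AT5G35480 with 918, MRU1 with 791, AT2G14945 with 721 and AT5G15360 with 616 units per kilobase in cmt3. The value of AT5G35480 depends on the transcript used, with a spliced length of 553 bases in a gene of 1750 bases. For 20 of the 27 genes the cmt3 level per kilobase lay under the median of tested genes. The genes were also shorter, with a median spliced length of 936 bases and 2 exons, against 1631 bases and 4 exons over tested genes. Their G and C content had a median of 37.9%, against 38.8%.

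The rule's ratio of 4 drew a line through a continuous range. Just inside it were AT1G47265 with a ratio of 4.11, AT5G26970 with 4.24, AT4G13577 with 5.003, AT2G15555 with 5.97 and AT1G26558 with 6.67. AT1G47265 had 5.37 and 11.3 in the labelled triple mutant, against 51.3 and 46.3 in cmt3, and AT5G26970 had 21.8 and 19.7 against 101 and 92.4. Just outside were EDL3 with a ratio of 3.84, AT4G15975 with 3.71, AT1G13608 with 3.66, AT5G52670 with 3.55 and AT2G16676 with 3.54. EDL3, an F-box gene, had 18.4 and 20.7 in tcx5/6;cmt3 libraries, against 79.5 and 84.7 in cmt3.

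The rule used no gene positions apart from the loci it left out, and the set lies on all 5 chromosomes, with 7, 8, 3, 3 and 6 genes on chromosomes 1 to 5. Locus numbers do not always follow position. AT1G06957 of the set (13477922 to 13478204 on chromosome 1) lies between AT1G36070 and AT1G36078, whose numbers are in a left-out range. Of the 27 genes, 8 had another of the set within 10 kb. They form 4 pairs. AT1G27565 and AT1G27570 lie 348 bases apart on the same strand, and the others are APD4 with APD3, HTA4 with AT4G13577, and AT5G35480 with MRU1. With any gene called lower counted as the partner, 12 of 27 (44.4%) had one within 10 kb, against 110 of all 549 genes called lower (20.04%). No test was made of this difference.

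A stretch of lower genes surrounded HTA4 on chromosome 4. Its bounds, UNE15 and AT4G13577, were set after the values were seen, so that its genes are lower is a description. Over these 18.9 kb, 7 of 10 annotated genes were tested, and HTA4 and AT4G13577 were chosen by the rule. UNE15, a late embryogenesis abundant family gene named for unfertilized embryo sacs, was not in the set and had 82.5 and 70.2 in tcx5/6;cmt3, against 509 and 452 in cmt3. Its log2 difference was -2.64 ± 0.19 (SE; limma adjusted p = 0.000808). AT4G13572, uncharacterized, had 39.5 and 85.9 in tcx5/6;cmt3, against 303 and 321 in cmt3 (log2 difference -2.40 ± 0.37, adjusted p = 0.0121).

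AT4G13575, the next protein-coding gene, had 297 and 316 in tcx5/6;cmt3, against 865 and 787 in cmt3 (log2 difference -1.43 ± 0.12, limma adjusted p = 0.00123). AT4G13577, at the far end and in the set, had 0.576 and 7.41 in tcx5/6;cmt3, against 37.1 and 55.3 in cmt3. The 2 other tested genes in the stretch were not called: the non-coding AT4G06115 (limma adjusted p = 0.125), with 17.2 and 8.37 against 40.4 and 36.7, and MIR841a (adjusted p = 0.275), which lies inside HTA4 on the opposite strand. The flanking genes were not called: MIR397b had 10.5 and 13.01 in tcx5/6;cmt3 against 14.8 and 13.2 in cmt3, and AT4G13580, a dirigent-like gene, had 282 and 255 against 259 and 487. These calls beside HTA4, like every other in the comparison, ended when either tcx5/6;cmt3 library was left out and the same genes were kept (0 genes called).

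**Figure D2:**
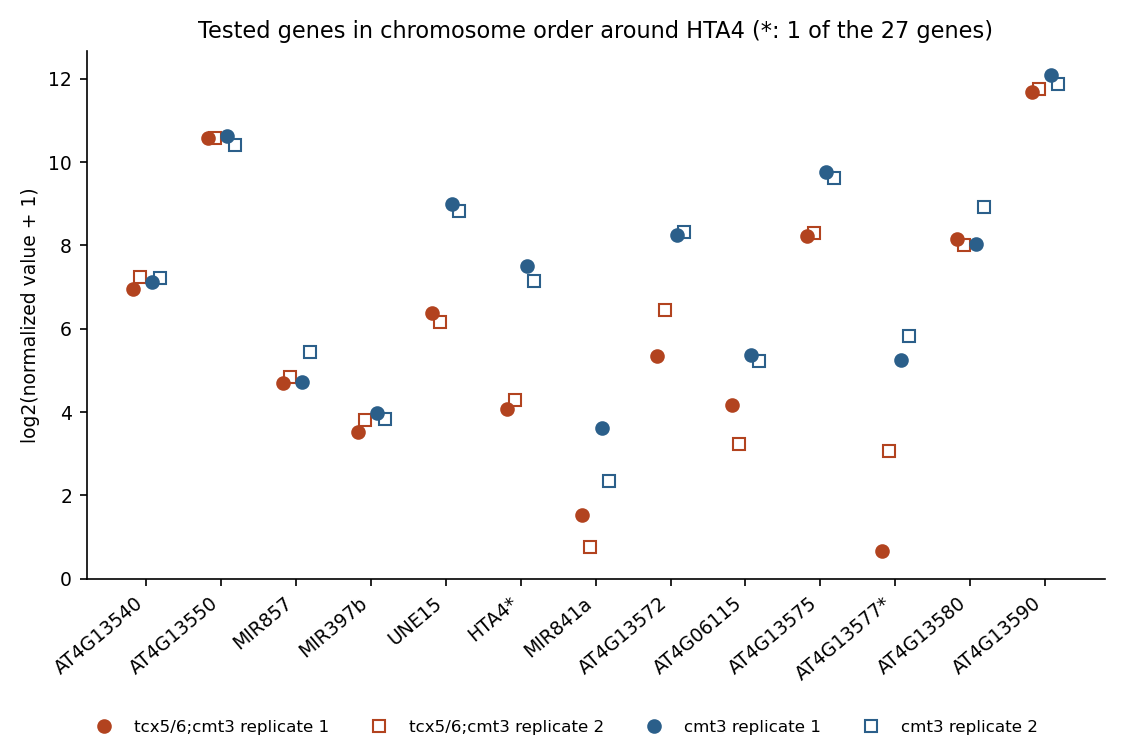
Values of the tested genes around HTA4 in chromosome order, as log2(normalized value + 1), with tcx5/6;cmt3 libraries in orange-red left of cmt3 libraries in blue, replicate 1 filled and replicate 2 open. An asterisk marks genes of the set. From UNE15 to AT4G13577, bounds set after the values were seen, both tcx5/6;cmt3 points lie under both cmt3 points in each of the 7 genes.

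Beyond this stretch, most neighbours of the set were not called. The next tested genes on either side, within 6 annotated genes and leaving out genes of the set, numbered 49, of which 5 (10.2%) were called lower and 2 (4.08%) higher, against 2.32% and 6.15% of all tested genes. Of the 5, UNE15 and AT4G13575 lie beside HTA4 and AT4G13577 and are described above. The median log2 difference of the 49 was -0.10, and 36 of them (73.5%) had a lower mean in tcx5/6;cmt3 than in cmt3, against 53.0% of tested genes. The following were named after their values were seen. AT2G05642, a nucleic acid-binding protein gene 7070 bases from AT2G05635, was at 0 and 0 in tcx5/6;cmt3, against 30.3 and 13.4 in cmt3 (limma adjusted p = 0.0159). AT3G29638, a zinc finger gene 3073 bases from AT3G29639, was at 0 and 0 against 20.9 and 7.21 (adjusted p = 0.0417). The fifth, the non-coding AT1G06963, 22881 bases from AT1G06957, was at 0 and 0 against 17.7 and 6.94 (adjusted p = 0.0443). These 3 genes were low in both genotypes, with cmt3 replicates that differed more than 2-fold. The log2 differences of the 49 ran from -4.41 to 3.27. The 2 genes called higher were MIS12 and TLP6. TLP6, a tubby-like protein gene beside AT1G47265, had 1413 and 1439 in tcx5/6;cmt3, against 807 and 776 in cmt3 (adjusted p = 0.00229).

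**Figure D3:**
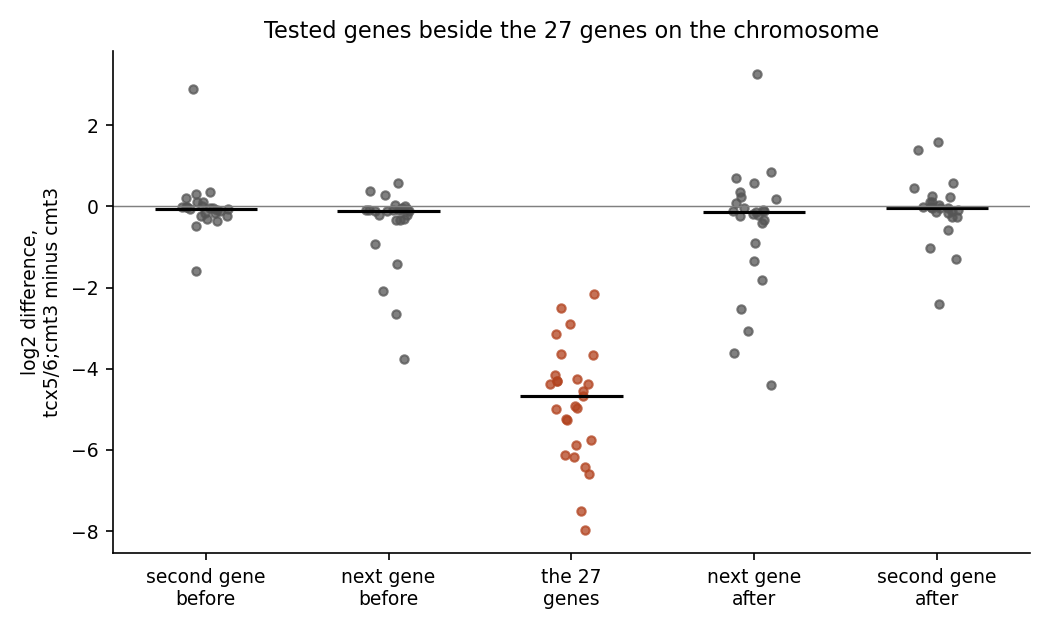
Log2 difference (tcx5/6;cmt3 minus cmt3) of the 27 genes and of the first and second tested genes before and after each on the chromosome, leaving out genes of the set. Each point is a gene and each line a median. The 27 genes have a median of -4.67. The neighbours' medians lie near 0 with some genes far from it on either side, and the first neighbours range from -4.41 to 3.27.

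Several genes of the set have near-copies. With a close copy defined as 1 alignment of at least 90% identity over at least 50% of the gene, 10 of the 27 genes (37.0%) had a copy elsewhere in the genome, against 3.33% of tested genes and 7.52% of the table. The 10 include APD3 and APD4, which are copies of each other. At 95% identity over 80% of the gene, a definition chosen after seeing the data, 4 of the 27 (14.8%) had one, against 1.21% of tested genes and 4.22% of the table. The sources used here do not say how the authors counted reads that match several places, so values of these 10 genes and their copies are uncertain. The other 17 genes have no such copy.

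Values at the copies varied. AT1G52905, the copy of AT1G27565 (98.4% identity over the whole gene), had 410 and 423 in tcx5/6;cmt3, against 481 and 527 in cmt3, and was not called (limma adjusted p = 0.274). AT4G15096 had 0.0276 and 7.01 in tcx5/6;cmt3, against 54.2 and 52.5 in cmt3, and its copy AT2G40955 (99.7%) was also lower, with 280 and 366 against 790 and 775 (log2 difference -1.29, adjusted p = 0.00459). The copy of AT5G41830, AT4G00320 (91.3%), was at 0 in all 4 libraries.

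AT1G06957 and AT3G29639 each have their copy inside a longer gene. AT5G38840, which holds the copy of AT1G06957, had 1174 and 1124 in tcx5/6;cmt3 against 1020 and 966 in cmt3. AT5G11430, which holds that of AT3G29639, had 787 and 806 against 725 and 745. Neither longer gene was called. AT5G45570 has 5 copies, 3 of them at annotated Ulp1 family genes (AT5G28235 at 99.5%, AT4G08430 at 94.9% and AT5G28810 at 92.8%), and AT4G08430 was at 0 and 1.04 in tcx5/6;cmt3 and at 0 and 0 in cmt3.

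The AT1G27565 pair is shown because the 2 genes are near-identical and only AT1G27565 met the rule. The 100 coding bases in which they differ most (chr1:9574866-9574965 and chr1:19706385-19706484, both plus strand) are shown with the 2 differing bases in capitals.
AT1G27565: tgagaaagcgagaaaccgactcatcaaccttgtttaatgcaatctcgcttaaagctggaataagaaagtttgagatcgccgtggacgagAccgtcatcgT
AT1G52905: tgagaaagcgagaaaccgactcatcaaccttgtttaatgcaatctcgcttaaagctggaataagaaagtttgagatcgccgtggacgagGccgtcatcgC

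**Figure D4:**
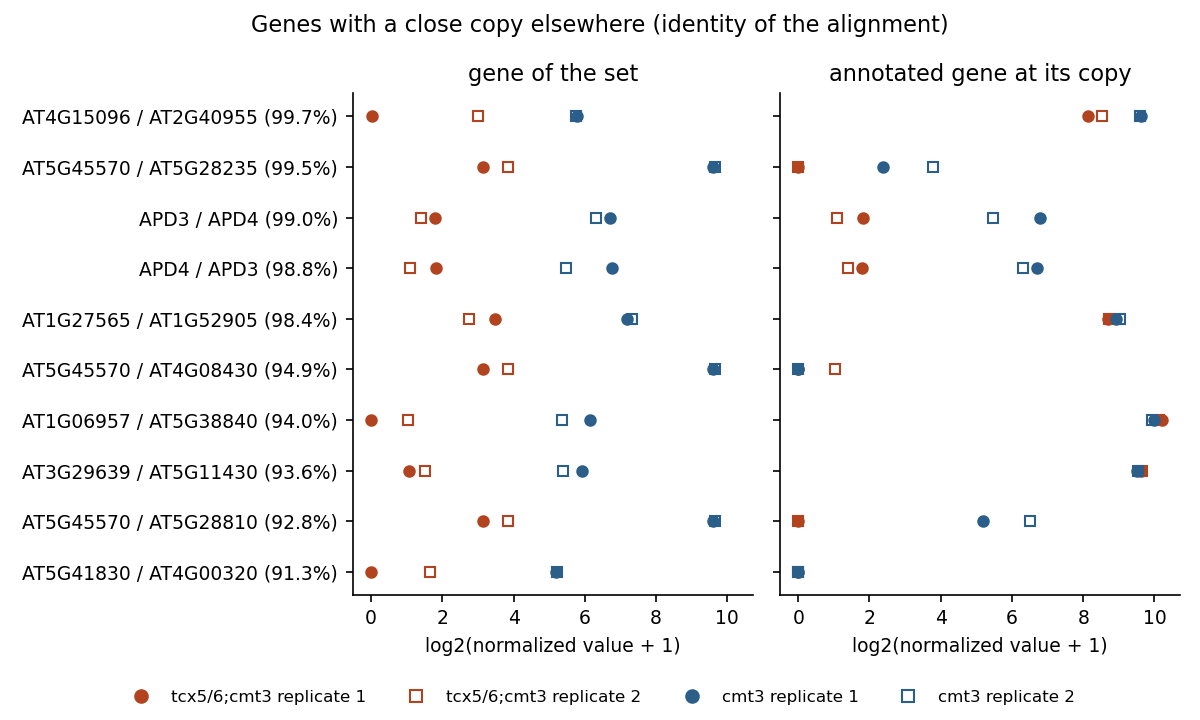
Values of genes of the set with a close copy (left) and of the annotated gene at that copy (right), as log2(normalized value + 1), with tcx5/6;cmt3 libraries in orange-red, cmt3 libraries in blue, replicate 1 filled and replicate 2 open, and the identity of the alignment in percent. AT1G52905, AT5G38840, AT5G11430 and AT2G40955 lie above 8 on this scale in all 4 libraries, and AT2G40955 was called lower. The copy of HTA4, at a microRNA precursor, is not drawn. Copies at no annotated gene are not drawn either: that of AT5G26970 and those of AT5G45570 on chromosomes 1 and 3.

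Upstream sequence was searched for sites known for DREAM and its partners, in the 250 bases before each annotated start and on both strands. The CHR element, TTTGAA or TTCGAA, was present for 5 of the 27 genes (18.5%), against 43.3% of all genes of the table. The E2F sites TTTCCCGC and TTTGGCGC were found for none of the 27, against 0.879% of the table. AACGG was found for 9 genes (33.3%), against 20.4%. A match describes these letters in this window and is no evidence of binding.

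None of the 27 genes was on the gene lists used for comparison. Of 9 genes for DNA methylation maintenance, 7 were higher in tcx5/6;cmt3 and none lower, with DDM1, a chromatin remodeller, at 2041 and 2165 against 608 and 580 in cmt3 (limma adjusted p = 0.000387). Of 8 tested loci known to respond to methylation, 2 were higher and 2 lower. The lower ones were HISN6B and QQS, an Arabidopsis-specific gene of starch metabolism. QQS had 31.01 and 48.3 in tcx5/6;cmt3, against 829 and 714 in cmt3 (log2 difference -4.28 ± 0.26, adjusted p = 0.000551), beside a median log2 difference of -4.67 in the set. Its locus number lies in a range that the rule leaves out, and its values also exceeded 30. Of the cold, heat, phosphate and salicylic acid genes, COR15A was lower and PR2 higher, and no pollen or seed marker was called.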

How the data were processed

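Messenger RNA of 2-week-old seedlings was sequenced from 2 libraries per genotype. Reads were aligned with HISAT2 to TAIR10 and edgeR was used, per the submitters' processing notes. The sources used here do not give the counter, strand setting, filters or treatment of multiply mapped reads. The authors deposited 1 column of normalized signal for each library. The values are fractional and their scaling is not given, so depth is unknown and no count test was run, although a count test had been allowed for in the design. Another 4 per-sample columns, which fit none of the samples, were not used here.

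Values under 1e-10 were set to 0. All 32548 identifiers matched the TAIR10.1 annotation (RefSeq), which gave products, symbols, 1-based coordinates and sequences. A gene was tested if at least 2 libraries had a value of at least 1 (23666 genes, all 27 of the set among them) with limma 3.58.1 in R 4.3.3 on log2(value + 1), with a mean-variance trend, group as the only term, and Benjamini-Hochberg adjustment over all tested genes at 0.05. This scale understates differences of low genes. The fit was tested on simulated data. Close copies were found with blastn 2.17.0.

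The set, the gene lists and the tests were chosen with earlier results of these data known. Genes named were those at 0 in both tcx5/6;cmt3 libraries, the 15 with the highest cmt3 means, the 10 with the largest ratios, the 5 on each side of the ratio of 4, those within 10 kb of another, those with a symbol, their neighbours, and list genes; relatives, copies and other neighbours were added after values were seen. The list of H2A genes and other relatives was drawn from annotation words.

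Alternatives covered the rule's thresholds, pseudocount, filter, trend, quantile normalization, a replicate block, each library left out, distance, motif window and copy definition.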

Additional observations from a re-analysis of the deposited data

How the results depend on the processing

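The number of genes chosen depended on the rule: a ratio of 2 gave 47, and leaving out 1 library at a time gave 38 to 41, each holding all 27. Floors of 20 or 50, a ratio of 8, quantile normalization and division by the total gave 20 to 29. Of the 27, 18 (limma without the trend) to 27 were called lower under the other settings, with 22 at a pseudocount of 0.1. The number called lower among all genes was 135 without the trend, against 549, and the number called higher 586, against 1456.

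Leaving out a library made the remaining one stand for its genotype's spread, which is assumed like the other's. With a cmt3 library left out and the filter applied again, only 24 of the 27 genes were tested. The 3 genes at 0 in both tcx5/6;cmt3 libraries no longer passed the filter. With the filter applied again, 24 to 26 of the set, 212 to 2568 lower and 720 to 3068 higher genes were called. With the same 23666 genes kept, an alternative chosen after seeing the data, limma called 0 of the set and 0 genes in all without tcx5/6;cmt3 replicate 1 or without replicate 2, where 2407 and 2490 genes had an unadjusted p under 0.05, all 27 of the set among them. Without cmt3 replicate 1 it called 14 of the set, 341 lower and 1182 higher genes, and without cmt3 replicate 2, 18, 530 and 1281. The calls thus depended on which genes entered the fit. The median log2 difference was -5.41 at a pseudocount of 0.1 and -4.94 to -4.45 with a library left out, or -5.06 to -4.56 with the same genes kept.

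Over the tested genes as a whole, same-numbered libraries did not deviate together (correlation of replicate differences 0.000633). That value cannot show whether same-numbered libraries shared a batch that touched some genes only. With a replicate block 27 of the set were called lower.

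Counting the next annotated gene in place of 10 kb left 4 genes of the set with a neighbour in it. With 50 bases after the start added, the CHR element was present for 29.6% of the set, against 48.4% of the table. In the 250 bases before the start, TTCGAA alone was present for 0%, against 7.46% of the table. Close copies at 95% identity over 80% of the gene, chosen after seeing the data, remained for 4. Depth is unknown, so values near 0 cannot be told from 0.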
